A study of Mus musculus with 2 samples.

Results

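This account concerns 8 mouse genes of ferritin and iron handling: Fth1, Ftl1, Tfrc, Slc40a1, Slc11a1, Slc11a2, Ireb2 and Aco1. They were chosen by gene symbol, not by a measured value, out of 55536 annotated genes. RNA was taken from the nucleoplasm of bone marrow-derived macrophages, which are primary cells grown in culture from mouse marrow, here of strain C57BL/6J. The cells had been treated with 100 ng/ml of Lipid A, the part of bacterial lipopolysaccharide that engages the receptor TLR4, for 30 min. After depletion of ribosomal RNA, total RNA was sequenced in 2 libraries that form 1 group, with 1 µg of starting RNA for replicate 1 and 500 ng for replicate 2. The labels link these libraries to separate biosamples and to a single donor entry, and the age and sex of the mice were not collected. Unstimulated cells were not analysed here. Levels after stimulation and differences between 2 libraries are given, so no condition is compared and no p-value is printed. The labels do not say whether the biosamples came from separate cultures, and what varies between them may be technical.

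Cells store iron inside ferritin, a hollow shell of heavy chains (Fth1), which oxidise ferrous iron, and light chains (Ftl1), which help form the mineral core. Iron enters bound to transferrin through the transferrin receptor (Tfrc), crosses the endosomal membrane through DMT1 (Slc11a2) and leaves the cell through ferroportin (Slc40a1), the only known iron exporter of mammals. Slc11a1 encodes NRAMP1, known as a metal transporter of the macrophage phagosome that withholds metals from engulfed microbes. Whether NRAMP1 protein is made or works in cells of this strain was not measured. The iron regulatory proteins IRP1, which is the cytosolic aconitase when it holds an iron-sulphur cluster (Aco1), and IRP2 (Ireb2) bind hairpins called iron-responsive elements. Binding in a 5′ untranslated region blocks translation, as known for ferritin and ferroportin mRNAs, and binding in the 3′ untranslated region of the Tfrc mRNA slows its decay.

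The hairpins carry the link between these genes, so the transcripts of GENCODE M21 on mm10 were searched on the sense strand for their letters. The pattern was CNNNNNCAGTGN, a bulged C, a stem of 5 bases, the loop CAGTG with 1 further base, and then at least 4 of 5 bases that pair with the stem, G-T pairs included. Of protein-coding transcripts, 7.75% held such a match and 0.961% held one with all 5 pairs; by gene the shares were 10.7% and 1.34%. The 3 genes with a match in the 5′ untranslated region are shown first, as windows of 30 bases read 5′ to 3′, with the bulged C and the CAGTG loop in capitals.
Fth1-201: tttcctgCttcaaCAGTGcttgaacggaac
Ftl1-201: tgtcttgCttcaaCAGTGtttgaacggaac
Slc40a1-201: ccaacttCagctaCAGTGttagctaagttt
The Fth1 window lies at chr19:9982731-9982760 on the plus strand, the Ftl1 window at chr7:45459779-45459808 on the minus strand and the Slc40a1 window at chr1:45925465-45925494 on the minus strand. All 3 had 5 of 5 pairs. The ferritin windows were identical at 27 of 30 positions, and the differences, with the Fth1 base first and positions counted from the 5′ end of the window, were T2G, C5T and C19T.

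The main coding transcript of Tfrc held 4 matches, all in the 3′ untranslated region and all with 5 of 5 pairs. They are shown because they lie after the coding sequence, whereas the windows above lie before it.
Tfrc-201 match 1: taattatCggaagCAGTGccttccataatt
Tfrc-201 match 2: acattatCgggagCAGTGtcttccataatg
Tfrc-201 match 3: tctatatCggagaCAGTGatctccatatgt
Tfrc-201 match 4: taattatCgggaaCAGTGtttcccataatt
These windows lie on the plus strand at chr16:32631218-32631247, chr16:32631597-32631626, chr16:32631662-32631691 and chr16:32631709-32631738. The bulged C of the first and that of the last are 491 bases apart.

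Slc11a2 held a match in the 3′ untranslated region of 1 of its 8 transcripts, and Slc11a1 held a match inside its coding sequence. Both had 4 of 5 pairs and are shown for contrast with the windows above.
Slc11a2-205: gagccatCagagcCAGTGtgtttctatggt
Slc11a1-201: aataacaCtgtgtCAGTGgatatttatcaa
The first lies at chr15:100395153-100395182 on the minus strand and the second at chr1:74383495-74383524 on the plus strand. No transcript of Ireb2 or Aco1 held a match. A match is a description of letters, and binding was not measured.

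**Figure D1:**
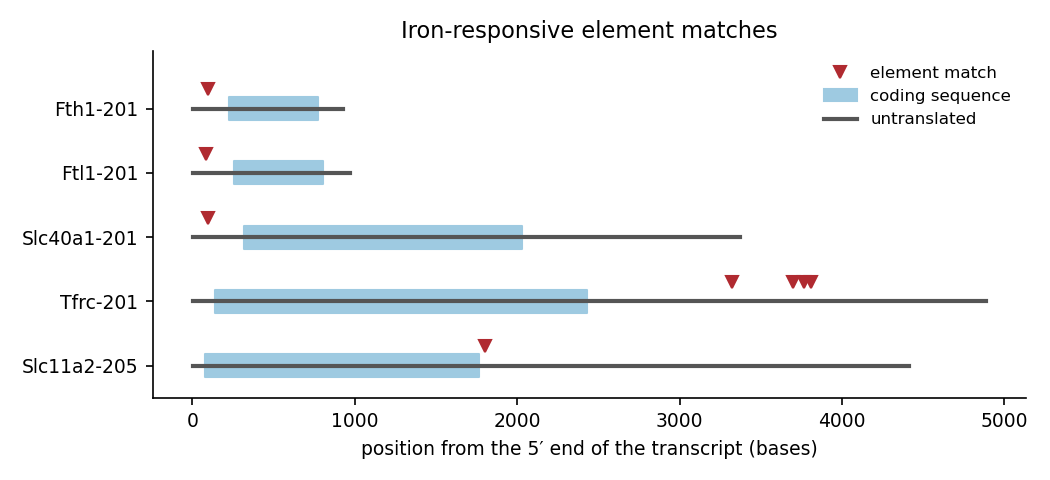
Position of each element match (triangle) along 5 transcripts, drawn to scale in bases from the 5′ end, with the coding sequence as a box and the untranslated parts as a line. The matches of Fth1-201, Ftl1-201 and Slc40a1-201 lie before the coding sequence, and those of Tfrc-201 (4 of them) and Slc11a2-205 (1) lie after it.

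All 8 genes reached a TPM (a level that is corrected for transcript length and library size) of at least 1 in both libraries, as did 42.4% of the 22015 nuclear protein-coding genes. The libraries held 15846212 and 14874879 expected counts on annotated genes. As a check of the cell type, all 8 macrophage markers were detected. Their summed level was 2628 TPM in replicate 1 and 3362 TPM in replicate 2, of which Lyz2 alone gave 1465 and 2295 TPM. Erythroid markers, which matter here because red cell precursors are rich in iron genes, summed to 3.24 and 3.71 TPM, with 1 of 8 detected and the globin genes Hba-a1, Hbb-bs and Hbb-bt at 0 counts. Neutrophil markers summed to 4.76 and 8.89 TPM with 2 of 8 detected, and fibroblast and B cell markers had 0 of 5 detected each. Of 5 nuclear RNA markers 3 were detected, and Malat1 alone took 10.1% and 8.51% of counts. Of the other 2, Meg3 had 0 counts in both libraries, and Snhg11 stood at 0.64 and 0.13 TPM. The libraries differed in mitochondrially encoded RNA, at 2.18% of counts in replicate 1 and 6.14% in replicate 2, and in cytosolic ribosomal protein mRNA, at 0.129% and 0.191%.

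The ferritin genes were among the most abundant protein-coding RNAs of the nucleoplasm. Ftl1 (ENSMUSG00000050708.16, chr7:45457944-45459884, minus strand) stood at 882 TPM in replicate 1 and 967 TPM in replicate 2, a mean of 924 ± 60.1 (SD, n = 2), and ranked 12 of 22015. Fth1 (ENSMUSG00000024661.7, chr19:9980598-9985098, plus strand) stood at 765 and 852 TPM, a mean of 808 ± 61.6, and ranked 15. The printed levels depend on the table: the second transcript tables gave means of 466 TPM for Ftl1 and 345 for Fth1, 88.8 for Tfrc, 54.7 for Slc11a1, 32.9 for Slc40a1, 24.9 for Slc11a2, 8.27 for Ireb2 and 5.53 for Aco1. Both chains were somewhat higher by TPM in replicate 2, and Ftl1 was above Fth1 in each library. Together they took 0.140% of the expected counts of replicate 1 and 0.201% of those of replicate 2.

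The level of heavy chain RNA per light chain RNA was close to equal in the libraries. The ratio of Fth1 to Ftl1 TPM was 0.867 in replicate 1 and 0.881 in replicate 2, a mean of 0.874 ± 0.00981. The second set of transcript tables, estimated from the reads directly, gave 0.697 and 0.779. The ratio of the main coding transcripts alone, Fth1-201 over Ftl1-201, was lower and less even, at 0.460 and 0.661. The gene ratio takes in transcripts annotated without a coding sequence, and the ratio of coding transcripts does not.

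The importer Tfrc (ENSMUSG00000022797.16, chr16:32608920-32632794, plus strand) was the most abundant of the transport genes, at 184 TPM in replicate 1 and 185 TPM in replicate 2, a mean of 184 ± 0.806, rank 173. The exporter Slc40a1 (ENSMUSG00000025993.10, chr1:45908068-45926523, minus strand) stood at 61.8 and 82.5 TPM, a mean of 72.1 ± 14.6, rank 563. The NRAMP1 gene Slc11a1 (ENSMUSG00000026177.11, chr1:74375195-74386062, plus strand) stood at 118 and 79.0 TPM, a mean of 98.8 ± 27.9, rank 388. By TPM over all transcripts, Slc11a1 RNA was above Slc40a1 RNA in replicate 1, and their levels were close in replicate 2. Slc11a2 (ENSMUSG00000023030.16, chr15:100387898-100425072, minus strand), the transporter that moves iron out of endosomes, was lower at 45.7 and 24.0 TPM, a mean of 34.9 ± 15.4, rank 1372.

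The regulators were the lowest of the 8 genes. Ireb2 (ENSMUSG00000032293.8, chr9:54863789-54912530, plus strand) stood at 18.5 and 11.6 TPM, a mean of 15.0 ± 4.89, rank 3165. Aco1 (ENSMUSG00000028405.9, chr4:40143081-40198338, plus strand) stood at 11.5 and 7.43 TPM, a mean of 9.46 ± 2.86, rank 4380. The gene for IRP2 was above that for IRP1 in each library.

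The order of levels was Ftl1, Fth1, Tfrc, Slc11a1, Slc40a1, Slc11a2, Ireb2 and Aco1 in replicate 1, and in replicate 2 it differed by the places of Slc11a1 and Slc40a1. The deposited credibility bounds of neighbours, whose level is not stated, were separate at every step in replicate 1. In replicate 2 they overlapped for Slc40a1, at 76.9 to 83.0 TPM, and Slc11a1, at 70.8 to 83.7 TPM, so these 2 levels were not distinguishable there, and they were separate at the other 6 steps. In the second transcript tables Slc11a1 was above Slc40a1 in both libraries, at 67.5 against 27.3 TPM and at 41.9 against 38.4 TPM. Slc11a2, at 36.04 TPM, was also above Slc40a1 in replicate 1 there. On protein-coding transcripts of the first tables alone, Slc40a1 was above Slc11a1, at 54.7 against 46.8 TPM and at 74.6 against 33.2 TPM. The second tables gave 21.6 against 17.9 TPM and 32.1 against 14.9 TPM for these coding transcripts. Coding transcripts of Slc11a2 stood there at 20.9 TPM in replicate 1, below those of Slc40a1. The order of these genes thus depends on whether non-coding transcripts are included. The bounds cover the estimation of a level within a library and not the spread between libraries.

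**Figure D2:**
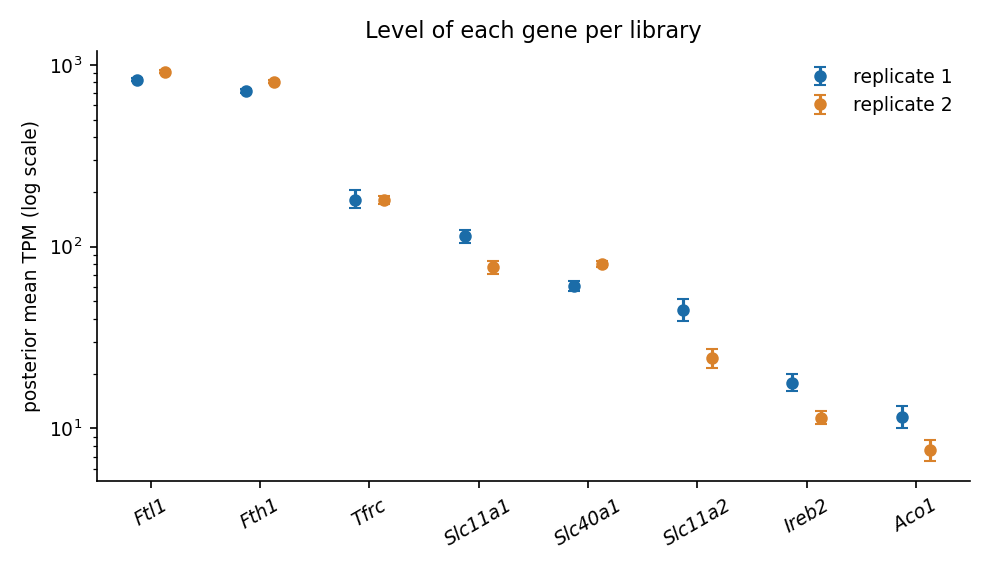
Level of each gene as the posterior mean TPM of replicate 1 (blue) and replicate 2 (orange) on a log axis, with the deposited credibility bounds as bars. Ftl1 and Fth1 lie well above the other 6 genes, and the bounds of Slc11a1 and Slc40a1 overlap in replicate 2.

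The libraries were next compared on counts scaled by TMM, a scaling that assumes most genes are equal. Over the 10444 genes whose mean reached 50 counts, the median log2 ratio of replicate 2 over replicate 1 was -0.02, with 10th and 90th percentiles of -0.68 and 0.78. None of the 8 genes lay beyond 2-fold with separate bounds, against 8.37% of all genes tested. The storage genes, the importer and the exporter were higher in replicate 2, 4 of 8 genes against 48.6% of all genes. Their scaled bounds were separate, as were those of 41.6% of all genes, so the members' share was near that of all genes.

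Slc40a1 had the largest ratio of the 8, with 3253 and 5358 expected counts and a log2 ratio of 0.80, or 1.74-fold. Tfrc had 11141 and 15755 counts and a log2 ratio of 0.58. Ftl1 had 10273 and 14035 counts and a log2 ratio of 0.53. Fth1 had 11931 and 15921 counts and a log2 ratio of 0.50, or 1.41-fold. These 4 ratios lay between the 80.4 and the 90.5 percentile of all genes tested.

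The remaining genes had ratios below 0 with scaled bounds that overlapped between the libraries. Slc11a2 had 1692 and 1241 counts, a log2 ratio of -0.37. Aco1 had 641 and 511 counts, at -0.25, and Ireb2 had 1536 and 1245 counts, at -0.22. Slc11a1 had 2420 and 2127 counts, at -0.11. In the second transcript tables Slc11a1 and Aco1 stood at 0.04 and 0.03, so 6 of 8 genes were above 0 there. The direction of Slc11a1 and Aco1 is therefore not established by these libraries.

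By TPM the median log2 ratio of all genes was -0.44, and the genes have to be read against it. The log2 TPM ratio was 0.41 for Slc40a1, 0.16 for Fth1, 0.13 for Ftl1 and 0.01 for Tfrc, and it lay between -0.58 and -0.93 for the other 4 genes. The small SD of the Tfrc level thus belongs to the TPM scale and not to the counts. A 166-base transcript of Tfrc, Tfrc-203, had 1 count in replicate 1 and 0 in replicate 2, and this count made up 8.92 TPM, since a transcript this short gains a high TPM from a single count. Mitochondrially encoded RNA, ribosomal protein mRNA and the amount of starting RNA also differed between the libraries, and their part in these ratios was not tested. More cells with an RNA and more of it per cell cannot be told apart in bulk RNA.

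**Figure D3:**
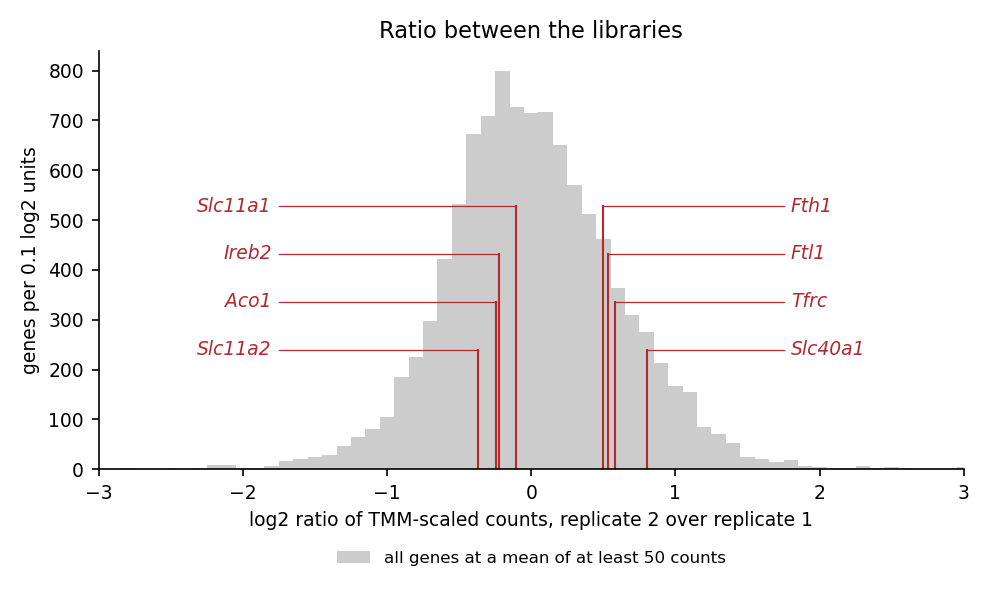
Grey bars count genes with a mean of 50 counts or more by their log2 ratio of TMM-scaled counts, replicate 2 over replicate 1, in steps of 0.1, and red lines mark the 8 genes. The axis ends at 3 in each direction and leaves out 17 genes. Fth1, Ftl1, Tfrc and Slc40a1 lie on the right shoulder, and the others lie near the centre.

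Transcripts that keep an intron held a large part of the Fth1 RNA. Their share of the gene's TPM was 58.5% in replicate 1 and 43.0% in replicate 2, a mean of 50.8% ± 10.9. Among 5832 protein-coding genes that have such a transcript, the median share was 25.9% in replicate 1 and 24.2% in replicate 2, and 86.8% of those genes had a lower mean share than Fth1. Replicate 2 minus replicate 1 was -15.5 points; a share lower in replicate 2 was found for 53.5% of the genes, and one lower by 10 points or more for 18.1%. By expected counts the Fth1 share was 69.2% and 54.0%, a difference of -15.2 points, against 52.8% of genes with a lower share in replicate 2 and 9.93% with one lower by 10 points or more. The median share by counts was 13.7% and 12.9%. Whether these reads come from retained introns or from precursors that were not yet spliced was not tested.

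Most of the difference in Fth1 counts lay on coding transcripts. Fth1-201, the main coding transcript of 929 bases, had 3511 counts in replicate 1 and 7303 in replicate 2, and its isoform percent as deposited was 38.3% and 56.8%. The retained-intron transcript with the most counts, Fth1-208 of 2062 bases, had 5561 and 5929, and it contains the same hairpin letters. Summed over classes, coding transcripts had 3672 and 7318 counts, a scaled log2 ratio of 1.08, and retained-intron transcripts had 8259 and 8603 counts, a scaled log2 ratio of 0.14. A coding-class log2 ratio above 1 was found for 4.69% of 5393 genes with a retained-intron transcript. Assignment of reads to transcripts that share exons is an estimate, and the second tables gave retained-intron shares of 61.0% and 43.8% of TPM.

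**Figure D4:**
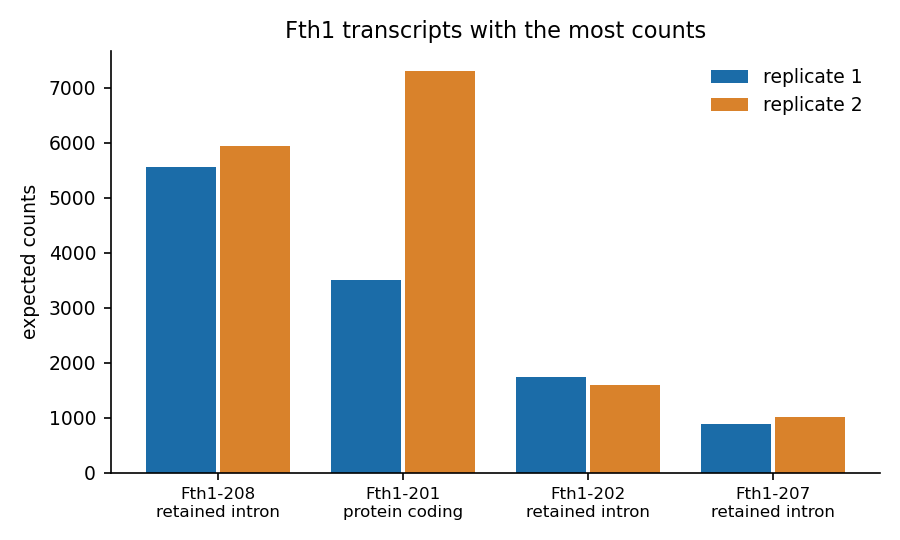
Expected counts of the 4 Fth1 transcripts with the most counts in replicate 1 (blue) and replicate 2 (orange). The coding transcript Fth1-201 differs most, at 3511 and 7303 counts, while the retained-intron transcript Fth1-208 stands at 5561 and 5929.

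In the first transcript tables the coding transcript held most of the light chain RNA. Ftl1-201 had 8059 and 11645 counts and 72.3% and 75.7% of the gene's TPM. Its retained-intron transcripts held 27.3% and 23.8% of TPM, near the medians of 25.9% and 24.2% among protein-coding genes with such a transcript. By counts they held 21.1% and 16.4%, above the medians of 13.7% and 12.9%. By TPM the second tables gave 40.9% and 35.8% for retained-intron transcripts and 47.7% and 54.8% for coding transcripts. The division of Ftl1 is therefore uncertain. In the first tables the retained-intron transcripts differed in opposite directions between the libraries, with Ftl1-205 at 165 TPM in replicate 1 and 86.1 TPM in replicate 2, and Ftl1-206 at 75.9 and 144 TPM.

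Among the transporters, Slc40a1 was the least divided, with 88.4% and 90.5% of its TPM in Slc40a1-201 and 8.02% and 6.89% in retained-intron transcripts. Tfrc had 59.2% and 67.8% of its TPM in Tfrc-201, and its retained-intron transcripts held 35.9% and 32.2%. The second tables gave lower values for Tfrc, at 21.2% and 10.9%, so this share is uncertain. Slc11a1 was divided among many transcripts, with 38.7% and 41.7% of TPM in the coding transcript Slc11a1-201, and 21.2% and 19.8% in retained-intron transcripts. A further 39.3% and 38.2% of its TPM lay in transcripts of other non-coding classes, which held only 12.4% and 11.6% of its counts. One of these, Slc11a1-206 of 378 bases, had 77.1 and 74.3 counts and 25.04% and 25.89% of the gene's TPM.

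Slc11a2 makes coding transcripts that differ in the 3′ end, with and without the element. Slc11a2-205, which holds it, had 956 and 643 counts and 29.2% and 30.5% of the gene's TPM. Slc11a2-201, in which no match was found, had 634 and 521 counts and 29.0% and 36.9% of TPM. The form with the element thus had more counts in each library, while by TPM the form without it was about equal in replicate 1 and higher in replicate 2.

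In the first transcript tables the regulators had simple transcript patterns. Ireb2-201 held 73.2% and 77.6% of the Ireb2 TPM, and its retained-intron transcript Ireb2-202 held 20.7% and 22.4%. Aco1-201 held 90.02% and 89.44% of the Aco1 TPM, and Aco1 has no transcript annotated with a retained intron. The second tables gave Aco1-201 a lower share of TPM, at 71.8% and 70.2%, but 96.3% and 95.8% of counts.

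**Figure D5:**
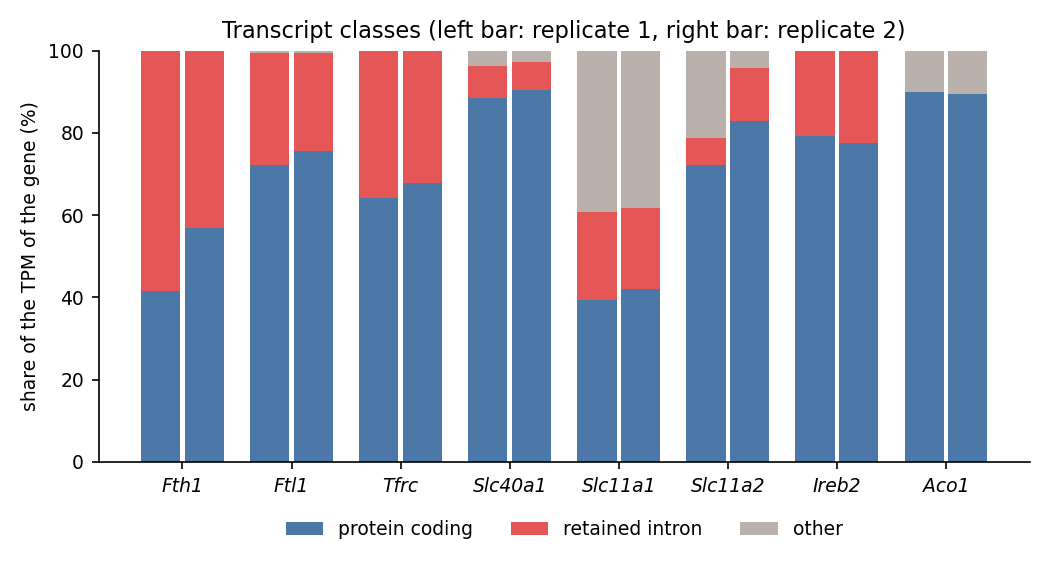
Share of each gene's TPM in protein-coding, retained-intron and other transcripts, with replicate 1 as the left bar and replicate 2 as the right bar of each pair. Fth1 has the highest retained-intron share in both libraries (58.5% and 43.0%), and Slc11a1 the highest share of other classes (39.3% and 38.2%).

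The RNA of the genes with an element match was next divided by whether the transcript contains it. By expected counts the transcripts with a match made up 77.4% and 83.2% of Fth1, 78.9% and 83.6% of Ftl1, 98.3% and 99.4% of Tfrc and 99.7% of Slc40a1 in each library. By TPM the shares were lower, at 64.7% and 74.9% of Fth1, 72.7% and 76.2% of Ftl1, 81.2% and 94.6% of Tfrc and 96.4% and 97.4% of Slc40a1. The second tables gave TPM shares of 62.8% and 73.6% for Fth1 and 59.0% and 64.2% for Ftl1. For Tfrc they gave 59.7% and 87.1%, and for Slc40a1 86.9% and 90.4%. For Slc11a1, with its match in the coding sequence, the share was 79.8% and 82.7% of counts and 57.6% and 58.9% of TPM. For Slc11a2 the share was 56.5% and 51.8% of counts but 29.2% and 30.5% of TPM. Whether most Slc11a2 RNA was on the transcript with the match thus depends on the measure. By TPM the second tables gave 47.2% and 54.0% for Slc11a1 and 18.3% and 28.3% for Slc11a2. Part of the TPM without a match lay on short transcripts with few counts. Slc11a2-204 of 393 bases had 27.8 and 4.04 counts and 21.3% and 4.27% of the gene's TPM. The Fth1 value includes the retained-intron transcript Fth1-208, so a transcript with the element is not always one with the coding sequence.

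Near-identical gene copies can take or give reads in ferritin genes. For Ftl1, 7 copies aligned to the mRNA at 90% identity or more over at least 50% of its length, and together they had 104 and 255 counts, 1.02% and 1.81% of the Ftl1 counts. Ftl1-ps1, at 99.6% identity over 94.0% of the mRNA, had 98.9 and 249.7 of these, Gm15590 had 5.50 and 2.86, and Gm7541 had 0 and 2. For Fth1, 12 genes were considered by name or alignment, and they had 16 and 10 counts, 0.134% and 0.0628% of the Fth1 counts. Fth-ps2 had 15 and 10 of them, and Fth-ps3 had 1 and 0. Ftl1 also overlaps Gm10252 on the opposite strand by 416 bases, which had 131 and 61.8 counts, and Slc11a2 overlaps Gm5475 on the opposite strand by 2926 bases, which had 67 and 15. The labels and headers do not say whether strand was used in counting, so these reads are uncertain between partners.

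By the Euclidean distance of log2(TPM + 1) over the 2 libraries, among protein-coding genes, the gene nearest to Fth1 was Ftl1, at a distance of 0.27, followed by Apoe, the lipid carrier of macrophages, at 0.30. For Ftl1 the nearest genes were Fth1 and then the cytokine gene Tnf, at 0.39. A likeness over 2 libraries of 1 group says only that the levels are close.

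The wider set of iron genes was described in 5 lists of 60 genes, of which 39 were detected. Among all nuclear protein-coding genes 42.4% were detected, the share beside which the counts per list below are to be read. Of the 39 genes whose mean reached 50 counts, 26 were higher in replicate 2, where 48.6% of all genes tested were higher. Of the same 39, 2 lay beyond 2-fold higher and 1 lower, against 4.95% and 3.42% of all genes tested.

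In uptake, reduction and release, 6 of 14 genes were detected. Trf, which encodes transferrin, was highest at 147 ± 10.9 TPM. Mcoln1, a cation channel of lysosomes, followed at 69.5 ± 2.43 TPM, and Cp, the ferroxidase ceruloplasmin, at 14.8 ± 9.49 TPM. Cp was the gene beyond 2-fold lower in replicate 2, with 801 and 320 counts. The ferroxidase genes Heph and Hephl1 and the reductase gene Steap1 had 0 counts in both libraries, which allows up to 3 counts each.

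In haem uptake and breakdown, 8 of 12 genes were detected. Lrp1, a receptor that takes up haem bound to haemopexin, stood at 399 ± 34.6 TPM. The haem exporter gene Flvcr1 stood at 43.0 ± 18.8 TPM, and Bach1, a repressor of ferritin and haem oxygenase genes, at 42.5 ± 19.5 TPM. The genes beyond 2-fold higher in replicate 2 were Hmox2, the constitutive haem oxygenase, with 216 and 438 counts, and Cd163, the receptor for haemoglobin bound to haptoglobin, with 56 and 125. Hmox1, the inducible haem oxygenase, was named after its values were seen; it had 506 and 952 counts, a log2 ratio of 0.99, just inside 2-fold.

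Among iron chaperones and ferritin turnover genes, 9 of 10 were detected. Pcbp2, which delivers iron to ferritin, stood at 75.5 ± 31.5 TPM, Ncoa4, the receptor that carries ferritin to autophagy, at 51.3 ± 3.82 TPM and Herc2, a ubiquitin ligase that acts on NCOA4, at 21.03 ± 9.71 TPM. The gene for mitochondrial ferritin, Ftmt, had 0 counts in both libraries.

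Of the mitochondrial iron and iron-sulphur assembly genes, 13 of 14 were detected. The iron importer genes Slc25a37 and Slc25a28 stood at 31.3 ± 13.4 and 23.8 ± 4.30 TPM. Of the systemic control genes, 3 of 10 were detected, led by Bmpr2 at 14.9 ± 1.07, Bmp2 at 13.0 ± 2.87 and Hfe at 9.42 ± 1.82 TPM. The hepcidin genes Hamp and Hamp2 and the protease gene Tmprss6 had 0 counts in both libraries. No gene of these last 3 lists lay beyond 2-fold.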

How the data were processed

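For each library the submitters gave quantifications of genes and, by 2 routes, of transcripts, on mm10 with GENCODE M21, per the deposited text files. The gene and first transcript tables rest on a transcriptome alignment and the second on the reads, per the deposited text files; no tool is named in the labels or headers. Deposited values were expected counts (estimated counts in the second tables), TPM, isoform percent and bounds of the posterior mean TPM, a signal of unstated level, per the file headers. Spike-ins (1.19% and 0.213% of counts) and 26248 unnamed features stayed out.

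Rounded counts of genes averaging 10 or more gave TMM factors (edgeR 4.0.16, R 4.3.3), and ratios used unrounded counts. Beyond 2-fold means a mean of 50 counts or more, a ratio above 2 and scaled bounds that do not overlap. The scaling was tested on simulated counts with as many genes raised as lowered. That test cannot show whether the scaling suits these libraries. Size factors of DESeq2 1.42.0, library size, TPM, the second tables and added gene copies were alternatives. A count of 0 allows up to 3 counts, for counting error only. Named genes were the 8 members, ferritin copies with counts, the 2 nearest in level to each ferritin gene, and the 3 highest by mean TPM in each list; list genes beyond 2-fold or at 0 were named after their values were seen, and a few genes within these rules are left unreported. The members and lists were chosen with earlier results of these data known.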

Additional observations from a re-analysis of the deposited data

How the results depend on the processing

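No paired analysis was possible because there was 1 group. None of the 8 members lay beyond 2-fold under any of the 7 alternatives, and all 8 were detected under each of 4, including leaving out either library. The ratio of Fth1 to Ftl1 was 0.738 in the second transcript tables against 0.874, and 0.867 to 0.881 with either library left out. In those tables the log2 ratio was 0.035 for Slc11a1 and 0.031 for Aco1, against -0.11 and -0.25; the cause was not tested. With no filter on low counts, 5 other iron genes lay beyond 2-fold higher in replicate 2 against 2, the additions being Hp, Lcn2 and Ltf. Their counts were low, at 6 and 29, 2 and 27, and 12 and 48, and Ltf is also among the neutrophil markers. The share of all genes without the filter was not computed, so the added genes are no result about iron genes. With the filter and DESeq2 factors taken from genes averaging 50 counts or more, 3 lay beyond 2-fold higher, the addition being Hmox1. With 2 libraries in 1 group, the number of libraries limits what can be said, and the members' counts, at least 511 each, do not.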
